A study of Mus musculus with 22 samples.

Results

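A set of 10 genes of the Hippo pathway and of its transcriptional output was followed in mouse bladder organoids with and without a working Arid1a gene. They are the YAP/TEAD target genes Ctgf, Cyr61, Ankrd1, Amotl2, Nt5e and Axl, the pathway regulators Lats2 and Ajuba, and the transcriptional effectors Yap1 and Tead1. They were picked by name with earlier results of these data known. They make up 10 of the 24421 gene symbols counted in each of the 22 libraries.

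Total RNA was sequenced from primary bladder urothelial organoids labelled ARID1A WT and ARID1A KO, with 3 libraries each. RNA from the polysome fraction and from the subpolysome fraction of a sucrose gradient of organoid lysates was sequenced in 3 further libraries for each genotype and fraction. Polysomes carry several ribosomes per mRNA, and the subpolysome fraction holds lighter material. A further 4 total RNA libraries, 2 labelled cancer ARID1A WT and 2 labelled cancer ARID1A KO, came from isogenic bladder cancer organoids by the extraction text, while their tissue label names bladder cancer tissue. Arid1a encodes a subunit of the BAF chromatin remodelling complex, and its genotype is the only stated difference between the WT and KO groups, with no treatment named. How the gene was deleted, which exons were removed, the strain and the age are not stated in the labels. Nor do they say whether replicate libraries came from separate animals or cultures, so each p-value reflects variation among libraries that could be technical only.

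Library totals ran from 39245248 counts in a KO subpolysome library to 76594655 in a KO polysome library, and replicate libraries differed by far more than counting error. All 7 basal urothelial markers were detected in every WT and KO total RNA library, in sums of 12740 to 15640 CPM (each count divided by its library's total and brought to a common scale). The summed luminal markers were higher in KO (2975 to 3298 CPM) than in WT total RNA (2082 to 2144 CPM), and the summed pan-epithelial markers were lower (840 to 911 against 1240 to 1367 CPM). Of the 11 luminal markers 10 rose and Krt20 fell at adjusted p under 0.05. Of the 4 pan-epithelial markers Cdh1 and Epcam fell and Grhl2 rose. The 10 fibroblast markers summed to at most 8.52 CPM and the 6 endothelial markers to at most 1.14 CPM in total RNA of the primary organoids. The 8 immune markers summed to 9.97 to 11.6 CPM in WT and 22.4 to 24.7 in KO, where Cd68 alone was at 1 CPM or more in every library and rose (log2 fold change 1.11, adjusted p = 8.31e-07), while Ptprc and Adgre1 were at 0 in both. The 6 smooth muscle markers summed to 178 to 189 CPM in WT and 224 to 246 in KO, with Acta2 and Smtn higher. The part of these shifts in the results below was not tested. In bulk RNA, fewer cells of a type and less RNA per cell cannot be told apart.

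Levels below are CPM scaled by trimmed mean of M-values (TMM) factors, once over the 10 total RNA libraries and once over the 12 gradient libraries, so levels are not set across those 2 sets. Arid1a stood at 137, 154 and 138 scaled CPM in the WT total RNA libraries and at 92.2, 91.8 and 103 in KO (log2 fold change -0.60, SE 0.06, adjusted p = 5.68e-06). Reads over the whole gene are counted, so this does not test the deleted part. In polysomes Arid1a stood at 28.9, 20.7 and 18.1 in WT and 20.2, 16.4 and 12.03 in KO, which overlapped (adjusted p = 0.0817). In subpolysomes it was not lower in the libraries labelled KO, at 66.4, 56.0 and 54.1 against 52.9, 54.0 and 48.2 in WT (log2 fold change 0.19, SE 0.12, adjusted p = 0.276). In the cancer libraries Arid1a did not follow the labels. It stood at 79.7 and 233 scaled CPM in those labelled WT 1 and WT 2, and at 208 and 67.3 in those labelled KO 1 and KO 2. The levels of WT 1 and KO 1 went against their labels, and those of WT 2 and KO 2 did not.

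In the Hippo pathway the kinases MST1 and MST2 activate LATS1 and LATS2, which phosphorylate YAP and its relative TAZ and keep them out of the nucleus. Unphosphorylated YAP has no DNA-binding domain of its own and binds TEAD factors, which recruit it to enhancers and promoters of genes for matrix, adhesion and cytoskeletal proteins. Several targets, among them Amotl2 and Lats2, feed back on YAP, and in stratified epithelia such as urothelium YAP activity is known for basal cells, growth and wound repair.

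RefSeq promoter windows (GRCm38.p6), from 250 bases before to 50 bases after the annotated start, were matched for 8 of the 10 genes, all but Ctgf and Tead1. The word GGAATG, the core that TEAD factors bind, or its reverse complement CATTCC was present in the windows of 7 of those 8 genes, against 14.7% of 32851 windows of all genes. It was found in the windows of Cyr61, Ankrd1, Amotl2, Ajuba, Axl, Lats2 (1 of its 2 windows) and Yap1, and not in that of Nt5e. The 14.7% counts windows and not genes, so Lats2 had 2 chances. For Ajuba and Axl the stretch checked after the start was not found in the gene's GENCODE transcripts. The AP-1 word TGANTCA, searched on both strands, was in none of these windows and in 7.81% of all. Most of the 8 genes are YAP/TEAD targets picked by name, so the share with the TEAD word is a description and no test. The matches describe letters in a short window and no binding. The 250 bases before the start are printed for 4 target genes that differ in this word, with every match in capitals, 5′ to 3′ on the gene's strand: Cyr61 (chr3:145649986-145650235, minus strand), Amotl2 (chr9:102717554-102717803, plus strand), Ankrd1 (chr19:36119845-36120094, minus strand) and Nt5e (chr9:88327359-88327608, plus strand).
Cyr61: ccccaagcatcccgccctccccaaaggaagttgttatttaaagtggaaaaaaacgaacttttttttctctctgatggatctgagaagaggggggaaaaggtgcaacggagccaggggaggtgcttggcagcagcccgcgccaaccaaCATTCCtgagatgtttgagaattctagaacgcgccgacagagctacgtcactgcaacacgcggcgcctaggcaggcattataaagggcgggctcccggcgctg
Amotl2: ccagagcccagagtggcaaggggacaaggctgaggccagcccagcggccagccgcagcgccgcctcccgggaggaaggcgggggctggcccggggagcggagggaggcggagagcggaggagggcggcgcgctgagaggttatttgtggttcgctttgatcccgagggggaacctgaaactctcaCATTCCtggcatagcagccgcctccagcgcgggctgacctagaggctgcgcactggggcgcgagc
Ankrd1: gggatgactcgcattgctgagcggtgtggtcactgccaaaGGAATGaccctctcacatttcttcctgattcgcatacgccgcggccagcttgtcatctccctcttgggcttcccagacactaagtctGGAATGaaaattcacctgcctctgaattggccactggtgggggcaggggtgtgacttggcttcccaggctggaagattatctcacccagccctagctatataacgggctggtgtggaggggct
Nt5e: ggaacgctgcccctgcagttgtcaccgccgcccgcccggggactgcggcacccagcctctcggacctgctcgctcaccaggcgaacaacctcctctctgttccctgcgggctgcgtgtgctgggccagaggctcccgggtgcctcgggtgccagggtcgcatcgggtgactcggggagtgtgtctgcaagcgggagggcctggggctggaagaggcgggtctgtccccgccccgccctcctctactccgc
The matches begin 103 bases before the start in Cyr61, 65 in Amotl2, and 210 and 123 in Ankrd1. The Ankrd1 window thus holds the word at 2 places, and the Nt5e window holds none.

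Levels differed widely among the 10 genes. Per kilobase of annotated exon in WT total RNA, Axl stood highest at 118 ± 2.59 scaled CPM (SD, n = 3), followed by Ajuba (103 ± 1.27), Cyr61 (67.9 ± 4.06) and Yap1 (63.4 ± 1.04). Ctgf (21.5 ± 6.45), Amotl2 (18.4 ± 0.186) and Nt5e (12.6 ± 1.48) came next, and Tead1 (7.75 ± 0.554), Lats2 (3.20 ± 0.119) and Ankrd1 (2.08 ± 0.821) were lowest. The libraries of the neighbours Cyr61 and Yap1 overlapped, as did those of Ctgf and Amotl2, while the other neighbours in this order did not overlap. The spread was widest, relative to the mean, for Ankrd1 and Ctgf.

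The first comparison asked how the pathway's transcripts differed between KO and WT organoids in total RNA. In KO, 5 target genes fell, Nt5e 3.07-fold, Ctgf 2.87-fold, and Amotl2, Cyr61 and Axl by less, and the effector Yap1 was slightly lower. Ajuba rose slightly, and Ankrd1, Lats2 and Tead1 did not pass the test. Of the 10 genes, 6 fell, 1 rose and 3 did not pass at an adjusted p of 0.05, where 26.3% of the 13198 genes tested fell and 27% rose. The median log2 fold change was -0.30 over the 10 genes and 0.00 over all genes tested. Because the 10 genes were chosen with earlier results of these data known, these counts and medians are a description and no test.

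The secreted matricellular proteins of the CCN family came first among the targets. Ctgf, which promotes matrix production, stood at 42.2, 63.2 and 79.0 scaled CPM in WT and 18.5, 30.5 and 15.9 in KO. No KO library reached the WT range (log2 fold change -1.52, SE 0.24, adjusted p = 0.000235). Cyr61, which signals through integrins, stood at 128, 141 and 142 in WT and 88.7, 103 and 84.3 in KO, again without overlap (log2 fold change -0.59, SE 0.07, adjusted p = 2.99e-05). GENCODE annotates antisense transcripts over exons of Ctgf and Yap1 and another gene model over exons of Lats2. Strand use in counting is not stated, so reads from the antisense transcripts cannot be separated from those of Ctgf and Yap1. The gene model over Lats2 lies on the same strand, so strand use would not separate its reads.

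Among the cell surface targets, Nt5e, the CD73 enzyme that makes adenosine outside the cell, stood at 43.5, 53.8 and 53.7 scaled CPM in WT and 15.1, 19.1 and 15.6 in KO. The KO level was 3.07-fold lower (log2 fold change -1.62, SE 0.10, adjusted p = 1.69e-07). Axl, a receptor tyrosine kinase for GAS6, stood at 496, 518 and 502 in WT and 434, 446 and 443 in KO. Its groups did not overlap either, though the difference was small (log2 fold change -0.21, SE 0.04, adjusted p = 0.000543). Ankrd1, a nuclear ankyrin-repeat protein and classic YAP target, stood at 2.44, 4.41 and 5.74 in WT and 3.05, 3.93 and 2.74 in KO. Those groups overlapped (log2 fold change -0.39, SE 0.26, adjusted p = 0.229), with a 95% interval from -0.96 to 0.18. WT library 1 was the lowest of all 6 for Ankrd1, and without it the gene passed the test (log2 fold change -0.66, adjusted p = 0.00923). Without WT library 3, the highest, the log2 fold change was -0.0993 (adjusted p = 0.768).

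Of the regulators, Amotl2, a junctional protein that holds YAP in the cytoplasm and is itself a YAP target, stood at 92.1, 93.8 and 92.3 scaled CPM in WT and 60.1, 63.0 and 53.2 in KO. The WT libraries were within a few CPM of each other and far from the KO libraries (log2 fold change -0.67, SE 0.06, adjusted p = 2.16e-06). Lats2, the kinase that inactivates YAP and also a YAP target, stood at 20.8, 22.2 and 20.9 in WT and 20.3, 21.9 and 20.5 in KO. Its groups overlapped, and the 95% interval of the log2 difference ran from -0.18 to 0.10. Ajuba, a LIM protein that inhibits LATS kinases, stood at 354, 352 and 346 in WT and 391, 385 and 377 in KO. It was the only one of the 10 to rise (log2 fold change 0.12, SE 0.04, adjusted p = 0.0223), but the call was lost without KO library 1 (adjusted p = 0.0753), KO library 2 (0.0562) or WT library 3 (0.0954), and in a fit of all 18 organoid libraries (0.601).

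Yap1 stood at 260, 266 and 269 scaled CPM in WT and 253, 234 and 255 in KO. The highest KO library was just under the lowest WT library (log2 fold change -0.12, SE 0.04, adjusted p = 0.0389). The Yap1 call was lost without KO library 1 (adjusted p = 0.056) or 2 (0.165), without WT library 2 (0.0673) or 3 (0.104), in the fit of 18 libraries (0.382), and with library totals in place of TMM (0.0857). Tead1, a DNA-binding partner of YAP, stood at 75.9, 87.3 and 79.6 in WT and 76.9, 73.7 and 79.4 in KO, which overlapped (adjusted p = 0.17), with a 95% interval of the log2 difference from -0.21 to 0.03. In 7 of the 10 genes the WT and KO libraries did not overlap, where 61% of all genes tested did not. Ctgf, Cyr61, Amotl2, Nt5e and Axl passed under each of the 12 alternatives run.

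**Figure D1:**
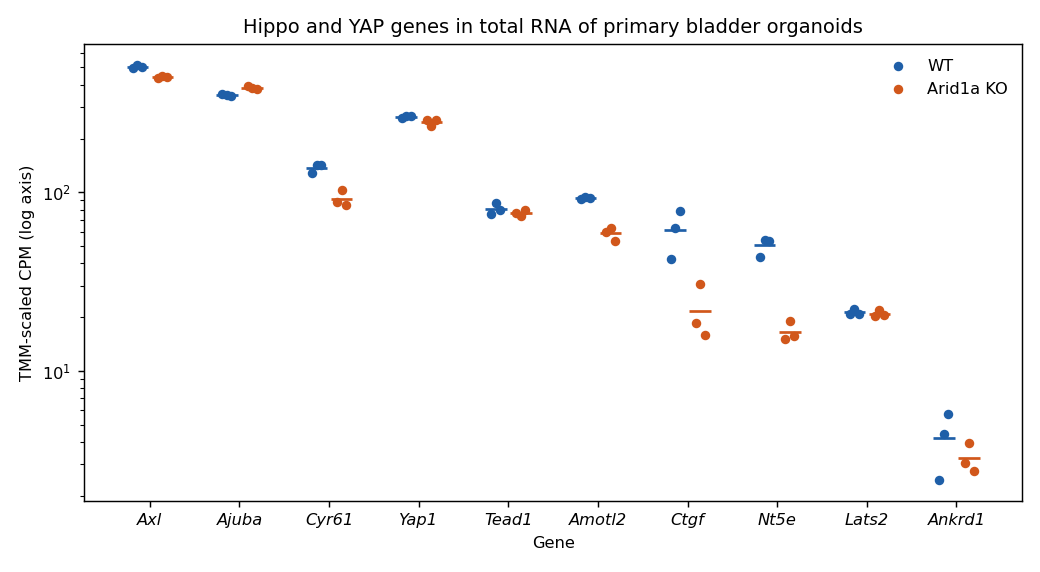
Level of each of the 10 genes in total RNA of primary bladder organoids, as TMM-scaled CPM on a log axis. Points are libraries (3 WT, 3 Arid1a KO) and bars are group means. The WT and KO points of Nt5e, Ctgf, Amotl2, Cyr61 and Axl are apart, and those of Lats2, Tead1 and Ankrd1 overlap.

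The other members of the pathway were taken from lists written from general knowledge, also with earlier results of these data known. Their counts are thus a description and no test of the lists. Of the 15 further genes of a 22-gene YAP/TAZ target signature, 11 fell in KO total RNA, 1 rose and 3 did not pass, with a median log2 fold change of -0.39 against 0.00 over all genes. Of all genes tested 26.3% fell and 27% rose, and the counts of the other lists below stand beside the same shares. Rbms3, an RNA-binding protein, fell from 171 to 95.02 mean scaled CPM (log2 fold change -0.86, adjusted p = 2.74e-07). Dock5, a Rac exchange factor, fell by 0.85 and Nuak2, an AMPK-related kinase, fell by 0.82 on the log2 scale. The single riser was Ccdc80 (log2 fold change 1.32, adjusted p = 0.000357), named after its value was seen. Among the other CCN genes 1 of 4 was tested, Wisp1, which fell (log2 fold change -0.81, adjusted p = 0.000825).

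Upstream of YAP the picture was mixed. Of 17 further genes of the kinase core and its activators, 7 fell, 4 rose and 6 did not pass (median log2 fold change -0.09), and the share that rose was close to the 27% of all genes. Tnik, a MAP4K-family kinase, fell from 41.4 to 9.16 mean scaled CPM (log2 fold change -2.19, SE 0.10, adjusted p = 1.34e-08), Map4k4, a LATS-activating kinase, fell by 0.52 on the log2 scale, and Frmd6, an upstream FERM protein, rose by 0.46. Of 15 tested junction and LIM genes, 8 rose, 3 fell and 4 did not pass (median log2 fold change 0.21). The tight junction scaffold Tjp1 rose from 147 to 203 mean scaled CPM (log2 fold change 0.45, adjusted p = 2.04e-06). Amot, the founding angiomotin that like Amotl2 binds YAP, rose from 0.478 to 3.00 mean scaled CPM (log2 fold change 2.63, SE 0.26, adjusted p = 6.36e-06), a low level in both groups.

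Of the 6 further YAP, TAZ and TEAD factors tested, 2 fell, 2 rose and 2 did not pass. Tead2 stood at 18.6, 25.7 and 26.5 scaled CPM in WT and 5.27, 5.08 and 4.69 in KO (log2 fold change -2.25, SE 0.13, adjusted p = 7.65e-08). Tead3 rose from 61.7 to 78.1 mean scaled CPM (log2 fold change 0.32, adjusted p = 8.22e-05), and the TEAD cofactor Vgll3 rose from 13.9 to 26.6 (log2 fold change 0.92, adjusted p = 3.97e-06). The other TEAD genes named here thus moved in both directions while Tead1 did not pass. Of 12 tested cytoskeletal genes, 7 fell and 3 rose. The tropomyosin Tpm1 fell from 1967 to 776 mean scaled CPM, the filamin Flna fell from 521 to 338, and the smooth muscle actin Acta2 rose from 6.27 to 20.7.

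**Figure D2:**
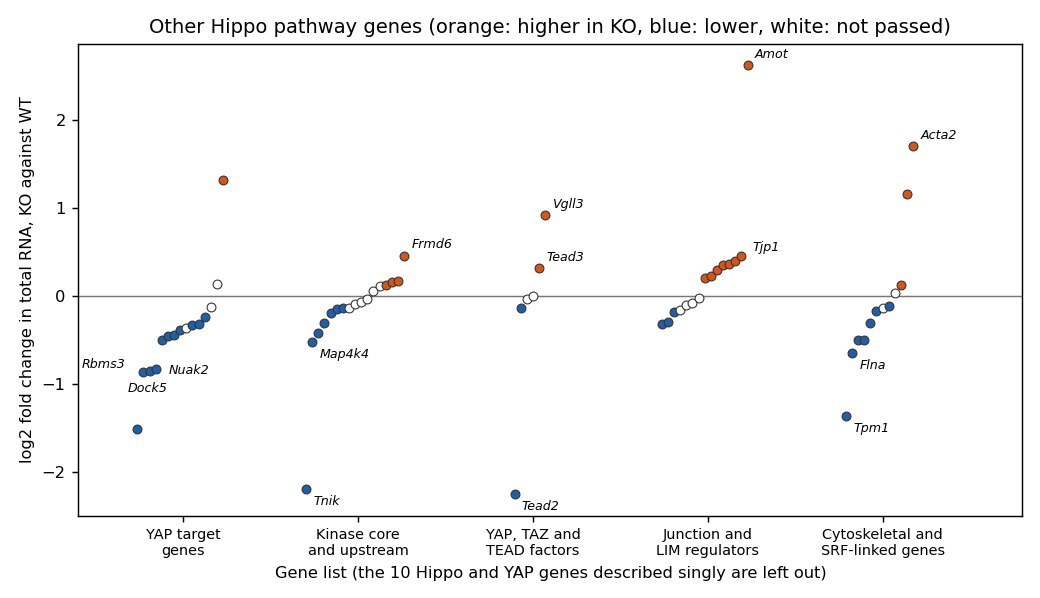
log2 fold change, KO against WT, in total RNA for the tested genes of 5 gene lists, leaving out the 10 genes described singly. Each point is a gene, orange where higher and blue where lower in KO at adjusted p under 0.05, and white otherwise. Most points of the YAP target list lie below 0, and Tnik, Tead2 and Amot lie farthest from 0 in their lists.

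The same genotype comparison was made within each gradient fraction. In polysomes 5 of the 10 genes fell and none rose, where 13.8% of 13066 genes tested fell and 14.9% rose. In subpolysomes, where Arid1a itself was not lower in the libraries labelled KO, 5 fell and none rose, where 11% of 12645 fell and 11% rose. By edgeR none of the 10 was higher at an unadjusted p under 0.05 in either fraction, and none rose by DESeq2. Ctgf, Cyr61, Amotl2 and Nt5e fell in total RNA, in polysomes and in subpolysomes. The median log2 fold change over the 10 genes was -0.39 in polysomes and -0.42 in subpolysomes, against 0.01 over all genes in each.

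Nt5e stood at 44.4, 54.7 and 49.2 scaled CPM in WT polysomes and 15.2, 16.6 and 12.2 in KO polysomes (log2 fold change -1.76, SE 0.15, adjusted p = 1.83e-07). In subpolysomes it stood at 24.4, 27.1 and 26.1 in WT and 10.5, 14.7 and 10.9 in the libraries labelled KO (log2 fold change -1.10, SE 0.16, adjusted p = 1.08e-05). No Nt5e library of one genotype reached the range of the other in either fraction. Ctgf stood at 22.3, 31.2 and 42.2 in WT polysomes against 10.2, 15.4 and 9.11 in KO (log2 fold change -1.46, adjusted p = 6.83e-05), and at 25.01, 26.05 and 34.6 against 8.97, 16.3 and 8.34 in subpolysomes (log2 fold change -1.34, adjusted p = 1.82e-05). KO library 2 was the highest of its group for Ctgf in all 3 kinds of RNA and still lay under every WT library.

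Cyr61 stood at 63.9, 66.7 and 77.3 scaled CPM in WT polysomes and 40.6, 45.7 and 39.2 in KO (log2 fold change -0.74, adjusted p = 0.000369). In subpolysomes it stood at 106, 98.6 and 104 in WT and 61.1, 73.4 and 60.9 in the libraries labelled KO (log2 fold change -0.66, adjusted p = 7.75e-05). The groups were apart in both fractions. Amotl2 stood at 22.7, 17.4 and 18.5 in WT polysomes and 13.9, 14.1 and 12.1 in KO (log2 fold change -0.56, adjusted p = 0.00898), a call lost without WT library 1 (adjusted p = 0.0512). In subpolysomes it stood at 39.8, 40.2 and 36.3 against 22.1, 32.1 and 27.2 (log2 fold change -0.51, adjusted p = 0.00857), a call lost without KO library 1 (adjusted p = 0.0673).

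The fifth gene past the test in polysomes was Ankrd1, at 2.98, 4.96 and 5.90 scaled CPM in WT and 2.72, 3.20 and 2.02 in KO (log2 fold change -0.80, SE 0.24, adjusted p = 0.0195). Those groups overlapped, and the call was lost without KO library 3 (adjusted p = 0.0572), WT library 2 (0.0742) or WT library 3 (0.0927) and in the fit of 18 libraries (0.0612). In subpolysomes Ankrd1 did not pass (log2 fold change -0.52, adjusted p = 0.456), and the fifth gene there was Axl, at 139, 143 and 138 in WT and 106, 120 and 108 in the libraries labelled KO (log2 fold change -0.32, SE 0.10, adjusted p = 0.0252). That call was lost without KO library 1 (adjusted p = 0.0866), KO library 3 (0.0858) or WT library 2 (0.108), and without KO library 1 the number of the 10 genes that fell dropped from 5 to 3. In polysomes Axl stood at 391, 356 and 398 in WT and 340, 333 and 331 in KO, apart but not past the test (log2 fold change -0.20, adjusted p = 0.267), though past it in the fit of 18 libraries (adjusted p = 0.0341). The genotype difference itself was not shown to differ between the fractions for Ankrd1 (adjusted p = 0.978) or Axl (adjusted p = 0.965).

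Ajuba, Lats2, Yap1 and Tead1 did not pass in either fraction. In polysomes their log2 fold changes were 0.18 for Ajuba (95% interval -0.13 to 0.48), -0.22 for Lats2 (-0.52 to 0.09), -0.02 for Yap1 (-0.32 to 0.28) and -0.21 for Tead1 (-0.54 to 0.12). In subpolysomes they were 0.01 for Ajuba (-0.22 to 0.23), 0.13 for Lats2 (-0.22 to 0.47), -0.12 for Yap1 (-0.37 to 0.13) and -0.08 for Tead1 (-0.34 to 0.19). These intervals were wider than those in total RNA. Of the 15 further YAP target genes, 5 fell and 1 rose in polysomes and 3 fell and 12 did not pass in subpolysomes, with medians of -0.40 and -0.39. Of all genes 13.8% fell and 14.9% rose in polysomes, and 11% fell and 11% rose in subpolysomes. Tead2 fell again, by 2.25 on the log2 scale in polysomes (adjusted p = 3.26e-07) and with a log2 fold change of -2.42 in subpolysomes (adjusted p = 6.22e-10). Tnik had log2 fold changes of -2.15 and -1.74 and passed in both.

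**Figure D3:**
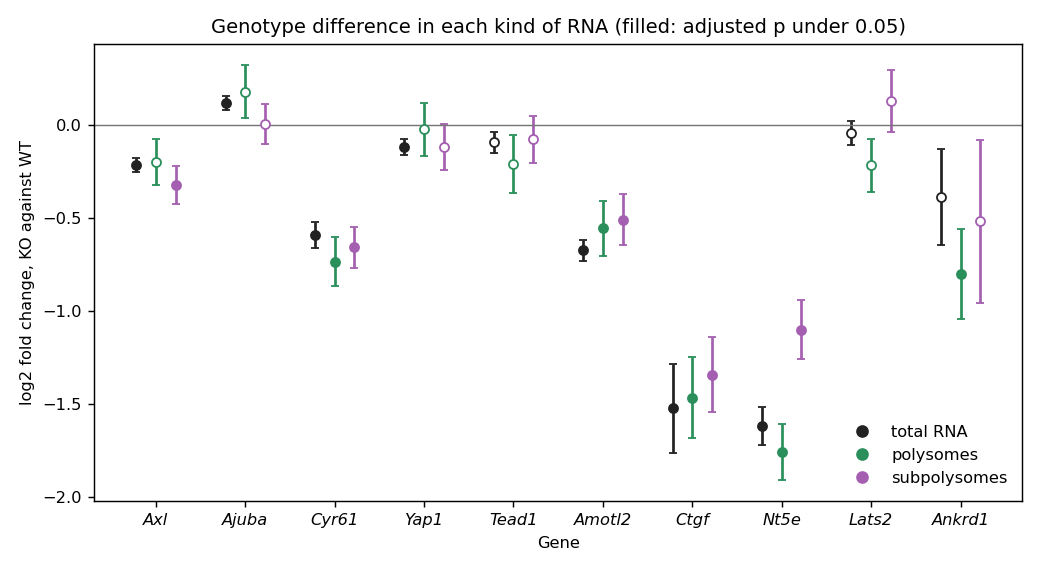
log2 fold change, KO against WT, of each of the 10 genes in total RNA (black), polysomes (green) and subpolysomes (purple), with bars of 1 standard error from edgeR fits of 6 libraries each. Filled points passed an adjusted p of 0.05. Ctgf and Nt5e lie lowest, between -1.10 and -1.76, and Ajuba, Lats2, Yap1 and Tead1 lie within 0.25 of 0.

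The gradient also compares polysome with subpolysome levels of each mRNA within a genotype. Relative to the middle of all genes, Axl and Yap1 mRNA leaned most to polysomes and Amotl2 mRNA most to subpolysomes in both genotypes. In WT, 4 of the 10 genes were higher in polysomes and 3 lower, where 32.8% of 13392 genes were higher and 30.9% lower. In KO, 3 were higher and 3 lower, where 31.7% were higher and 29.9% lower. These directions rest on TMM scaling: with library totals the median of all genes moves by 0.83 (WT) and 0.89 (KO) on the log2 scale toward polysomes, 7 of the 10 genes are then higher in polysomes and 3 do not pass in each genotype, and Cyr61, Lats2 and Tead1 change sign. The split over all genes is then 59.4% higher and 12.1% lower in WT, and 61.3% and 10.1% in KO.

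Axl stood at 391, 356 and 398 scaled CPM in WT polysomes and 139, 143 and 138 in WT subpolysomes (log2 ratio 1.45, SE 0.11, adjusted p = 2.61e-10), and its ratio in KO was 1.59. Yap1 stood at 174, 158 and 154 against 97.3, 77.7 and 72.4 in WT (log2 ratio 0.97, adjusted p = 2.23e-06), and its ratio in KO was 1.08. Both genes kept their fractions apart in every library. Ajuba was higher in polysomes in WT (log2 ratio 0.60, adjusted p = 0.000236) and in KO (0.79, adjusted p = 1.16e-05). Amotl2 was lower in polysomes in WT (log2 ratio -0.99, adjusted p = 4.34e-06) and in KO (-1.02, adjusted p = 3.34e-06) under TMM scaling. With library totals it did not pass, at -0.16 (adjusted p = 0.429) in WT and -0.14 (0.497) in KO.

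Cyr61 was lower in polysomes under TMM scaling, with log2 ratios of -0.57 in WT and -0.64 in KO, and so was Lats2, with -0.47 in WT and -0.81 in KO. With library totals the ratios became 0.25 and 0.25 for Cyr61 and 0.35 and 0.09 for Lats2. The WT call for Lats2 was also lost without WT subpolysome library 1 (adjusted p = 0.0588). Ctgf (0.16 in WT, 0.04 in KO), Ankrd1 (0.61, 0.33) and Tead1 (-0.06, -0.18) did not pass in either genotype under TMM scaling.

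Nt5e was higher in WT polysomes (log2 ratio 0.94, SE 0.15, adjusted p = 1.14e-05) and did not pass in KO (0.29, SE 0.15, adjusted p = 0.105). The KO ratio passed without KO subpolysome library 2 (adjusted p = 0.0137) and without KO polysome library 3 (0.024). It also passed with a replicate block (0.0385) and with library totals (log2 ratio 1.18, adjusted p = 1.32e-06). The difference between the genotypes in this ratio was tested itself and did not pass for Nt5e (log2 -0.65, SE 0.21, unadjusted p = 0.0058, adjusted p = 0.776). None of the 10 genes passed that test of the difference by edgeR or DESeq2, with adjusted p from 0.776 to 0.994 and 1 of them at an unadjusted p under 0.05. Over all 13392 genes 1 passed, 0.00747%.

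**Figure D4:**
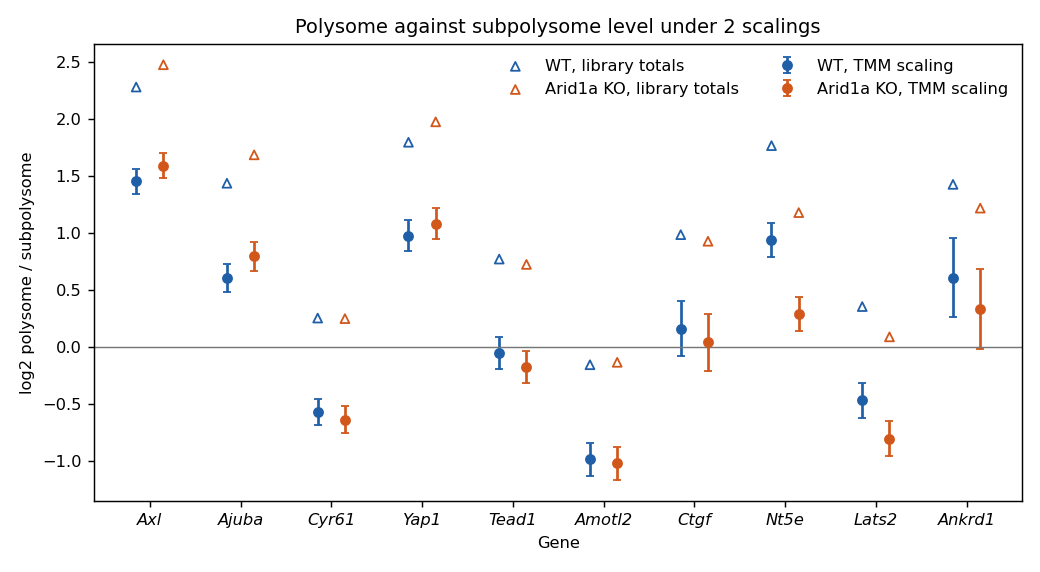
log2 ratio of polysome to subpolysome level for each of the 10 genes in WT (blue) and Arid1a KO (orange). Circles are TMM-scaled edgeR estimates with bars of 1 standard error, and triangles are the same ratios with library totals. Each triangle lies above its circle, by about 0.83 in WT and 0.89 in KO, and for Cyr61, Lats2 and Tead1 the scaling changes the sign.

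Over the 18 organoid libraries, the gene whose log2 CPM ran most like each of the 10 was found among 10320 genes, after the mean of each kind of RNA was subtracted. The genotype difference stays in these values, so genes that differ by genotype resemble each other for that reason. Nt5e ran closest to Tes, a LIM protein of focal adhesions (Pearson r = 0.995, 18 libraries), Cyr61 to Bhlhe41 (0.984), Axl to Lad1 (0.981), Ctgf to Thbs1, a matrix glycoprotein (0.970), and Amotl2 to Htra1, a secreted protease (0.952). Ajuba ran closest to Raver1 (0.930), Lats2 to Mapk1ip1l (0.930), Tead1 to Rsf1 (0.928), Yap1 to Tet3 (0.925) and Ankrd1 to Rfk (0.855). The 18 libraries share 6 groups and are not 18 independent conditions.

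In the cancer libraries the targets spread far more between libraries of one label than in primary organoids. Nt5e stood at 28.3 and 0.137 scaled CPM in the libraries labelled WT 1 and WT 2 and at 0.362 and 14.1 in those labelled KO 1 and KO 2, from 1428, 7, 17 and 743 counts. Ctgf stood at 0.973, 0, 0.0213 and 0.114 in the same order, from 49, 0, 1 and 6 counts, and Ankrd1 at 1.99, 0, 0.107 and 0, from 100, 0, 5 and 0 counts. The library labelled WT 1 was the highest for all 3 of these genes. A count of 0 here allows up to 3 counts.

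Axl stood at 456 and 53.3 scaled CPM in the libraries labelled WT and at 155 and 106 in those labelled KO, and Cyr61 at 95.9 and 28.4 against 48.2 and 64.1. For both, the 2 libraries labelled WT enclosed the 2 labelled KO. Amotl2 stood at 28.7 and 40.7 against 56.1 and 25.3, and Tead1 at 213 and 108 against 104 and 286. Ajuba (305 and 391 against 346 and 431), Yap1 (345 and 277 against 256 and 315) and Lats2 (19.3 and 14.1 against 14.03 and 19.2) varied less. Nt5e, Ctgf, Cyr61, Tead1, Yap1 and Lats2 were higher in WT 1 and KO 2 than in WT 2 and KO 1. Amotl2 and Arid1a were lower there, while Axl, Ajuba and Ankrd1 did not split so. The part of Arid1a in this was not tested.

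The library labelled WT 1 also carried the most fibroblast marker RNA, a sum of 25.5 CPM over the 10 markers, where the other 3 cancer libraries had 0.651 to 3.88. Its highest were Col6a1 at 9.25, Col3a1 at 8.58, Pdgfra at 2.98, Dcn at 2.80 and Fbln1 at 1.89 scaled CPM, while Col1a2, Lum and Thy1 were at 0. Col1a2 and Lum were at 0 in the other cancer libraries and in total RNA of the primary organoids as well. The part of this in the high Ctgf, Ankrd1, Axl and Cyr61 of that library was not tested. As labelled, none of the 8 genes tested passed between cancer KO and WT by edgeR or DESeq2 or had an unadjusted edgeR p under 0.05, and Ctgf and Ankrd1 were too low to test. None of 12681 genes passed, 0%, with 96 at an unadjusted p under 0.05 and 10 past the threshold by DESeq2. Because Arid1a did not follow the labels in these libraries, this comparison describes the labels only.

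**Figure D5:**
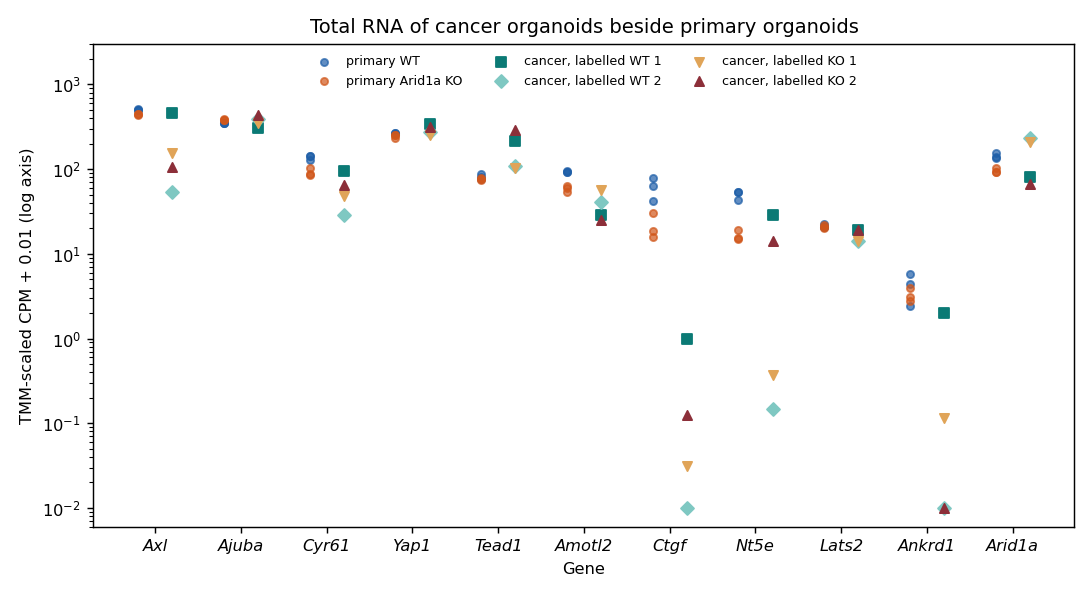
Level of the 10 genes and Arid1a in total RNA, as TMM-scaled CPM plus 0.01 on a log axis, in 3 WT and 3 KO primary organoid libraries (circles) and the 4 cancer libraries under their labels (other symbols). The 4 cancer libraries lie below every primary library for Ctgf, Ankrd1 and Lats2 and above them for Tead1. Libraries WT 1 and KO 2 lie apart from those labelled WT 2 and KO 1 for Arid1a and most of the 10 genes. The exceptions are Axl, Ajuba and Ankrd1.

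Cancer and primary organoids were then compared over both labels of each. Ctgf, Ankrd1, Axl, Amotl2, Cyr61 and Lats2 fell in cancer, Tead1 and Yap1 rose, and Nt5e and Ajuba did not pass. The 6 falls and 2 rises stand beside 39% and 38.8% of 14305 genes tested, and the median log2 fold change of all genes was -0.03. The library set and the tissue cannot be told apart in this comparison. The summed luminal markers were at 77.9 to 241 CPM in cancer, with Upk2, Upk3a and Upk3b at 0 in all 4 libraries. The summed basal markers were at 15820 to 23980 CPM in cancer, with 5 of 7 higher than in primary organoids, and the pan-epithelial sum at 480 to 681 CPM was below that of every primary total RNA library. The part of these shifts in the results was not tested.

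Ctgf was below 1 scaled CPM in each cancer library and at least 15.9 in each primary library (log2 fold change -7.61, SE 0.88, adjusted p = 6.91e-05). Ankrd1 was lower in each cancer library than in any primary one (log2 fold change -4.00, SE 1.16, adjusted p = 0.0127). With 1 or 2 cancer libraries at 0, the size of both fitted values depends on how zeros are handled. Amotl2 fell (log2 fold change -0.97, SE 0.21, adjusted p = 0.00307) although 1 cancer library reached the KO range of primary organoids. Tead1 was at 104 to 286 in cancer against 73.7 to 87.3 in primary organoids (log2 fold change 1.17, SE 0.28, adjusted p = 0.00478). Ctgf, Amotl2 and Tead1 passed under each of the 17 alternatives run, though their sizes moved. Leaving out 1 library at a time gave log2 fold changes from -11.61 (without the library labelled WT 1) to -7.11 for Ctgf and from 0.72 (without the one labelled KO 2) to 1.44 for Tead1. For Ankrd1 the value was -8.52 without the library labelled WT 1 and -6.41 without the one labelled KO 1.

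The other calls were weaker. For Axl, Yap1 and Cyr61 the cancer and primary libraries overlapped, as they did for Amotl2. Axl (log2 fold change -1.37, adjusted p = 0.0314) lost its call in 9 of 17 alternatives, Yap1 (0.22, adjusted p = 0.0356) in 11, Lats2 (-0.34, adjusted p = 0.0289) in 8, Cyr61 (-0.93, adjusted p = 0.0198) in 3 and Ankrd1 in 2. Leaving out any 1 of the 6 primary libraries ended the calls for Axl (adjusted p from 0.0523 to 0.0549) and Yap1 (0.0542 to 0.078). Leaving out WT or KO library 2 or 3 ended that for Lats2 (0.0506 to 0.0613). Without the cancer library labelled KO 1, adjusted p was 0.0522 for Axl, 0.0705 for Lats2 and 0.0627 for Cyr61. Without the one labelled KO 2 it was 0.0921 for Axl and 0.117 for Yap1, without WT 1 it was 0.138 for Yap1, and without WT 2 it was 0.0739 for Lats2. Each fit without a cancer library left 1 library under that label, with no spread of its own. Nt5e did not pass with all libraries (log2 fold change -1.51, adjusted p = 0.251). Its log2 fold change was -4.85 without the cancer library labelled WT 1 and -3.67 without the one labelled KO 2. Axl ranged from -2.51 without the library labelled WT 1 to -0.957 without the one labelled WT 2, and Cyr61 from -1.50 to -0.62 without the same libraries. Yap1 was at 0.13 without the library labelled WT 1 and 0.14 without the one labelled KO 2. Ajuba did not pass, with a 95% interval from -0.19 to 0.20.

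Of the 15 further YAP target genes, 6 fell in cancer, 1 rose (Crim1) and 8 did not pass (median log2 fold change -0.58), beside 39% of all genes that fell and 38.8% that rose, so the share that fell is near that of all genes. Rbms3 was at 0 to 0.157 scaled CPM in the cancer libraries against means of 171 and 95.02 in WT and KO primary organoids. Of the 6 further YAP, TAZ and TEAD factors tested, 5 fell and 1 did not pass, among them Tead3 (log2 fold change -1.89, adjusted p = 2.4e-07), Tead2 (-2.03, adjusted p = 0.00358) and Vgll3 (-3.68, adjusted p = 0.00661). Tead1 and Yap1 were thus the members of that list of factors with a higher level in cancer.

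Whether the labelled KO effect differed between cancer and primary organoids was tested for all 10 genes and passed for none by edgeR or DESeq2, with adjusted p from 0.281 to 1 and none at an unadjusted p under 0.05, where 3.13% of all genes passed. Leaving out a cancer library left 1 library under its label, with no spread of its own, so calls from those fits are not given. As 1 example among the 10 genes, the direction for Axl turned on the library left out. Its labelled KO effect was higher in cancer without WT 1 and lower without WT 2. Since the Arid1a level did not follow the cancer labels, these values too describe the labels only.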

How the data were processed

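Raw counts per gene symbol were deposited, made with HTSeq on mm10, per the submitters' processing notes, which also name Bowtie for the 18 organoid libraries. Their versions, the annotation and strand use are not stated there. Only the deposited counts were analysed. Genes were filtered with filterByExpr, scaled with TMM and tested with edgeR 4.0.16 quasi-likelihood F tests in R 4.3.3, with Benjamini-Hochberg adjustment over all genes tested and a threshold of 0.05. The scripts were tested on simulated data. Gradient ratios came from 1 fit of 12 libraries and cancer against primary organoids from 1 fit of 10. DESeq2 1.42.0, other scalings, no filter, a replicate block, library totals and leaving out each library were alternatives. Positions and exon lengths came from GENCODE for GRCm38, promoters from RefSeq. Replicates set the error, and for a count of 0 in a single library a limit of 3 counts, for counting error only, is given.

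The 10 genes and the lists were chosen with earlier results of these data known. From each list, up to 3 further genes with the smallest p in total RNA among those that passed were named, and for each of the 10 the gene most like it. A gene that this rule names is not reported here. Samples with the same replicate number deviated together in polysomes, with correlations of WT and KO deviations of 0.186, 0.197 and 0.249. That hints at pairs, which the labels do not state. These correlations were 0.145, 0.037 and -0.066 in total RNA, and 0.034, 0.036 and 0.069 in subpolysomes. Polysome and subpolysome libraries of the same genotype and number correlated at 0.063 to 0.193, against at most 0.032 for unlike numbers. The main fits used no pairing, and the replicate block was an alternative.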

Additional observations from a re-analysis of the deposited data

How the results depend on the processing

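Of 887 values of single genes under alternatives, 790 kept their direction and side of the threshold, 55 lost and 12 gained a call, and 30 changed sign. With the replicate number as a block, the 10 genes kept 7 calls in total RNA, 5 in polysomes and 5 in subpolysomes, and the cancer against primary comparison gave 5 in place of 8. In polysomes, where the correlations hint at such pairs, the block gave 5030 genes in all in place of 3757 and changed no call among the 10. In subpolysomes each library correlated best with its own number, a hint from the data and not the design. With the block the polysome to subpolysome ratio of Nt5e in KO passed (adjusted p = 0.0385). The test of the gradient difference between genotypes called 12 genes in all with the block, 12 with DESeq2 and 29 without the filter, in place of 1. The labelled cancer comparison called 10 genes with DESeq2 in place of 0, and 0 with the block or with crossed replicate numbers, which were tried after seeing the data because same-numbered libraries deviated in opposite directions (correlation -0.429). The difference between cancer and primary organoids in the labelled KO effect called 1747 genes with DESeq2 and 60 with the block, in place of 448. Cancer against primary organoids gave 3 of the 10 when only libraries labelled WT were used. Total RNA gave 3784 genes in place of 7025 when all 18 organoid libraries shared 1 fit. The cause of these shifts was not tested.

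Leaving out 1 library at a time gave 5 to 8 of the 10 genes in total RNA, 4 to 5 in polysomes, 3 to 5 in subpolysomes and 5 to 8 for cancer against primary organoids. It gave 0 to 2 of the 10 for the difference in the labelled KO effect, with 72 to 2376 genes in all, and 0 to 4 genes in all for the gradient difference. Log2 values that changed sign in this way did not pass: Yap1 from -0.13 to 0.11 in polysomes and -0.21 to 0.0145 in subpolysomes, Lats2 from -0.0256 to 0.21 and Ajuba from -0.0686 to 0.0722 in subpolysomes, and Ajuba from -0.0984 to 0.0818 for cancer. Likewise the polysome to subpolysome ratio ran from -0.0965 to 0.0452 for Tead1 in WT, from -0.21 to 0.44 (KO) and -0.088 to 0.37 (WT) for Ctgf, and from -0.001 to 0.79 for Ankrd1 in KO. With library totals, chosen after seeing the data, that ratio was 0.25 (WT) and 0.25 (KO) for Cyr61, 0.35 and 0.0869 for Lats2 and 0.77 and 0.72 for Tead1, Yap1 in polysomes was 0.0227, and Ajuba was -0.0277 in subpolysomes and -0.0652 in cancer. Ajuba was also -0.01 in subpolysomes in the fit of 18 libraries, and in cancer -0.0051 without the filter, -0.0187 with the block and -0.013 with libraries labelled WT only. Counts of 17 or fewer in a library, as for Ctgf, Ankrd1 and Nt5e in cancer, limit the precision of those genes.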
